A study of Mus musculus with 8 samples.

Results

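The sirtuins and the paired proteins Ccar1 and Ccar2 were followed in the RNA of mouse haematopoietic stem cells, written HSCs here, which sit in the bone marrow, replenish their own pool and supply all blood lineages. The 8 genes are 6 sirtuins (Sirt1, Sirt2, Sirt3, Sirt5, Sirt6 and Sirt7), Ccar2 and its relative Ccar1, out of 11854 named genes in the deposited table. They were selected by symbol, on results of these libraries: Ccar2 ranks 10 by p among 10989 tested genes in the comparison of the genotypes, and the other 7 genes were taken for belonging to the same family or pathway. The difference between genotypes is therefore given for these 8 genes as a description, with no p-value, and nothing is read from whether one of them passes the threshold of the fit over all genes. All 8 passed the filter on low values.

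Libraries came from 4 mice labelled Nupr1-/-, a deletion of the gene of a small stress-induced nuclear protein, and from 4 wild type mice, all labelled C57BL/6. HSCs were sorted from nucleated bone marrow cells, and each mouse gave 1 library of polyadenylated RNA. The allele design of the knockout, the sort markers, and the age and sex of the mice are not given in the sources used here. Values are normalised reads, that is, the reads of a gene divided by 1 size factor per library, and a log2 difference is Nupr1-/- minus wild type after adding 1.

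Sirtuins are enzymes that remove acetyl and other acyl groups from lysines of proteins and consume NAD in doing so, which ties their activity to the metabolic state of the cell. Sirt1, Sirt6 and Sirt7 act mainly in the nucleus, Sirt2 mainly in the cytoplasm, and Sirt3 and Sirt5 in mitochondria. Ccar2, also called DBC1, binds the catalytic region of SIRT1 and inhibits it, as shown in human cells, where p53 is one of the SIRT1 substrates affected. Ccar1 is the paralog of Ccar2 and is known as a transcriptional coactivator. In mouse HSCs, Sirt1, Sirt3 and Sirt7 have each been studied for their part in stress resistance and ageing.

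The start regions of 2 sirtuin genes are shown because these genes lay at opposite ends of the 6 in the genotype comparison described next. Among the 6 sirtuins followed here, Sirt1 had the lowest mean relative to wild type, 44.6%, and Sirt7 the highest, 187%. By the log2 difference Sirt1 was again lowest of the 6, but Sirt6 (0.860) stood level with Sirt7 (0.857). Sirt4, which is not among the 6, stood lower than Sirt1 on both measures, at 39.3% and -1.64, on 3 to 106 reads per library. Each window runs from 250 bases before to 50 bases after the annotated start, is taken from RefSeq on build GRCm38.p6, and is written 5′ to 3′ on the strand of the gene. Capitals mark GGGCGG, the GC box read by Sp family factors, or its reverse complement CCGCCC, and CCAAT or its reverse complement. The Sirt1 window is chr10:63338986-63339285, minus strand, and the Sirt7 window is chr11:120624965-120625264, minus strand.
Sirt1: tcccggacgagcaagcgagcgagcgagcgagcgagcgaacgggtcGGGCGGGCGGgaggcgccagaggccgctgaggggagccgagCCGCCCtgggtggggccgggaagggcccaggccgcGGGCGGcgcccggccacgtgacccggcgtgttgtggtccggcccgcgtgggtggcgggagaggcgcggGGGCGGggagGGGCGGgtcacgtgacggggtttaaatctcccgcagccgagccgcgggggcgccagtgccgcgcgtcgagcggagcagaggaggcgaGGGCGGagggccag
Sirt7: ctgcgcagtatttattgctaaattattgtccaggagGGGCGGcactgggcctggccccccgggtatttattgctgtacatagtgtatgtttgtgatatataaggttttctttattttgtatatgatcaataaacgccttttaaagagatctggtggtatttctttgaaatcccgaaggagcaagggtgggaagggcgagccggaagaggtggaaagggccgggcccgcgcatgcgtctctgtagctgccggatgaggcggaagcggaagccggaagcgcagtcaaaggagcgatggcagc
The Sirt1 window held 47 CpG dinucleotides and 79.0% G or C, and the Sirt7 window held 17 CpG and 51.3% G or C, against a median of 7 CpG over 32851 promoter windows of this length. GGGCGG occurred 7 times in the Sirt1 window, overlapping copies counted separately, and 1 time in the Sirt7 window, on either strand. The share of all windows with at least 1 GGGCGG was 35.7%. The E-box CACGTG occurred 2 times in the Sirt1 window and 0 times in the Sirt7 window, and 7.15% of all windows held it. CCAAT, found in 37.4% of windows, and TATAAA, found in 13.6%, were in neither. These are matches of letters on both strands, and no binding was measured. Windows were matched for 7 of the 8 genes (Ccar1, Sirt1, Sirt2, Sirt3, Sirt5, Sirt6 and Sirt7). Those of Sirt2, Sirt3, Sirt5 and Sirt6 held 15 to 24 CpG and 0 to 4 copies of GGGCGG. The Ccar1 window held 30 CpG, 0 copies of GGGCGG and 1 of CACGTG. In CpG and GGGCGG the Sirt1 window was thus the unusual one of these.

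Some properties of the libraries bear on every value below. Nupr1 itself did not separate the groups, at 179, 173, 200.6 and 119 normalised reads in the libraries labelled Nupr1-/-, against 285, 134, 245 and 318 in wild type, and which exons the allele removes is not given, so this does not check the labels. Xist, the RNA of the inactive X chromosome, was at 107 to 159 normalised reads in the Nupr1-/- libraries and at 0, 11.8, 0 and 0 in the wild type libraries. Recovered reads numbered 2296101 to 3959564 in the Nupr1-/- libraries and 3340217 to 4769401 in the wild type libraries. Wild type library 2 stood apart on the first principal component (25.6% of the variance), at 127 against -36.9 to -0.812 in the other 7. Values also moved with base composition: the Spearman correlation between the GC content of a gene and its deviation from the mean over libraries was 0.15 to 0.301 in the Nupr1-/- libraries and -0.303 to -0.138 in the wild type libraries, over 10889 genes of 1 library each. All 12 HSC markers were in the table, their summed level being 8879 to 11183 in Nupr1-/- and 9447 to 12533 in wild type, while 0 of 7 neutrophil markers were. Of 6 megakaryocyte markers 5 were in the table and 4 were higher in Nupr1-/- (summed level 1834 to 2322, against 694 to 1088 in wild type), where 1.68% of all genes were called higher. With the trend of each library in GC content and length removed, none of the 4 passed (limma, adjusted p of 0.0657 to 0.442). HSCs also express several of these megakaryocyte markers. Of 7 erythroid markers 5 were in the table and 1 was higher: Klf1, an erythroid transcription factor, averaged 56.3 in Nupr1-/- and 1.83 in wild type, and the summed level of the list was 293 to 385 in Nupr1-/- and 141 to 341 in wild type. Klf1 did not pass with that trend removed (limma, adjusted p = 0.1335). Of 6 B cell markers Cd79b alone was in the table, at 208 to 271 in Nupr1-/- and 238 to 859 in wild type, and it did not pass (limma, adjusted p = 0.0868). The monocyte list (1 of 5 markers in the table) and the T and NK cell list (2 of 6) had overlapping summed levels and no call. Xist and the correlations with GC content each separated the groups without overlap. Differences that go with either cannot be told apart from those of genotype. The part of sex, of base composition and of these markers in the differences below was not tested, except where a value is given.

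Ccar2 was low in every Nupr1-/- library and high in every wild type library. It had 75.8, 66.1, 64.5 and 45.4 normalised reads in Nupr1-/-, against 236, 369, 220 and 507 in wild type. The groups did not overlap: the highest Nupr1-/- library was below the lowest wild type library. The mean was 62.9 ± 12.7 in Nupr1-/- and 333 ± 134 in wild type (SD, n = 4 mice each), so Nupr1-/- stood at 18.9% of wild type, and the log2 difference was -2.32 ± 0.38 (SE). These values rest on 49 to 73 reads per library in Nupr1-/- and 221 to 671 reads in wild type. The spread relative to the mean was 20.2% in Nupr1-/- and 40.2% in wild type, with wild type libraries 2 and 4 above libraries 1 and 3. Without wild type library 2 the log2 difference was -2.25 ± 0.41. Since these are bulk libraries, fewer cells that express a gene and less RNA per cell cannot be told apart, here and below.

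Ccar2 lies on mm10 at chr14:70138164-70153811, minus strand, and its exons share 43 bases with those of Bin3, a membrane-curving BAR domain protein encoded on the other strand. The libraries do not mark strand, so reads in the shared stretch cannot be assigned to either gene. Bin3 had 271, 367, 340 and 332 normalised reads in Nupr1-/-, against 203, 304, 300.1 and 174 in wild type. Its log2 difference was 0.45 ± 0.28 (SE, adjusted p = 0.392, limma), so Ccar2 and its overlapping neighbour had differences of opposite sign. Ccar2 is a GC-rich gene, with 55.1% G or C in its longest transcript. When the trend of each library in GC content and length was removed, its log2 difference was -2.71, farther from 0 than without that step.

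The paralog Ccar1 overlapped between the groups. It had 349, 365, 162 and 281 normalised reads in Nupr1-/-, against 398, 397, 269 and 407 in wild type. Its mean was 289 ± 92.5 in Nupr1-/- and 368 ± 65.9 in wild type (SD, n = 4 each), with a log2 difference of -0.39 ± 0.29. The low values came from library 3 of each group, and with the GC and length trend removed the log2 difference was 0.07. Per kilobase of exons, the ratio of Ccar2 to Ccar1 was 0.493, 0.410, 0.905 and 0.367 in Nupr1-/-, against 1.34, 2.10, 1.86 and 2.83 in wild type. With these lengths Ccar1 was the more abundant of the pair in each Nupr1-/- library, and Ccar2 in each wild type library. Per kilobase of the longest transcript, a length applied here after the values were seen, the ratio was 0.254, 0.211, 0.466 and 0.189 in Nupr1-/-, against 0.692, 1.08, 0.956 and 1.46 in wild type. Ccar2 was then the more abundant in 2 of 4 wild type libraries, while the groups still did not overlap.

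**Figure D1:**
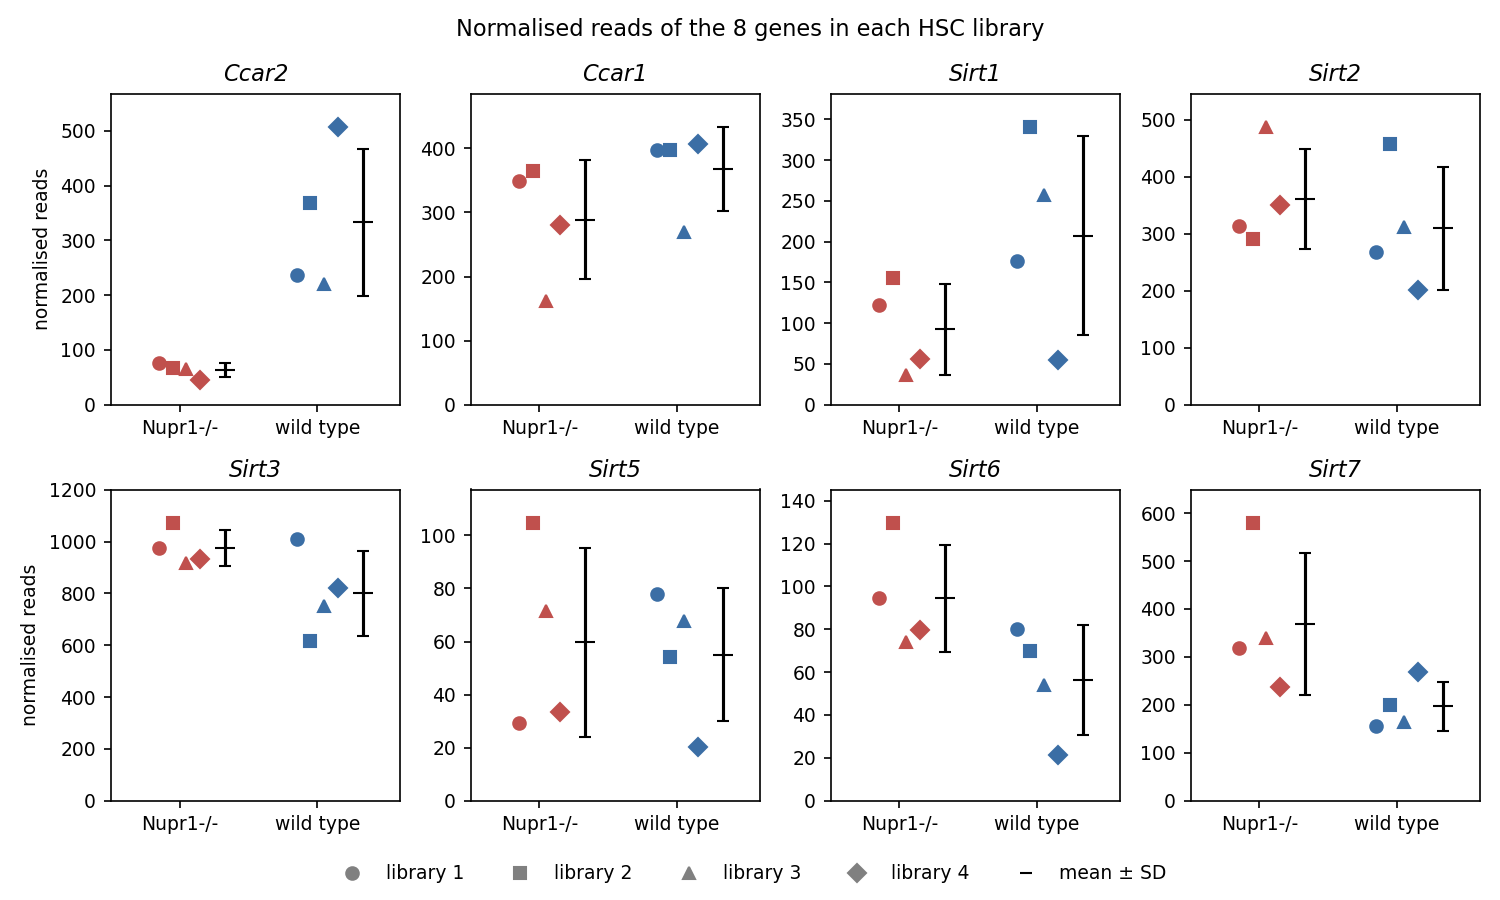
Normalised reads (vertical axis, linear from 0) of the 8 genes in each library, with Nupr1-/- libraries in red and wild type libraries in blue; each symbol is 1 mouse, and the black bars give the mean ± SD of 4 mice. Ccar2 is the gene whose groups do not overlap, at 45.4 to 75.8 in Nupr1-/- and 220 to 507 in wild type.

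Sirt1, the deacetylase that Ccar2 inhibits, had 122, 156, 36.2 and 55.6 normalised reads in Nupr1-/-, against 176, 341, 257 and 55.2 in wild type. Wild type library 4 lay within the Nupr1-/- range and the other wild type libraries lay above it. The mean was 92.5 ± 56.1 in Nupr1-/- and 207 ± 122 in wild type (SD, n = 4 each), and the log2 difference was -1.11 ± 0.56. Sirt1 varied most of the 8 genes among wild type libraries, with an SD of 58.7% of the mean. Without wild type library 2, the highest, the log2 difference was -0.78 ± 0.57. With the GC and length trend removed it was -0.80.

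The ratio of inhibitor to enzyme was less separated than Ccar2 alone. Per kilobase, Ccar2 to Sirt1 stood at 0.708, 0.485, 2.04 and 0.935 in Nupr1-/-, against 1.53, 1.24, 0.980 and 10.5 in wild type. The ranges overlapped, since Nupr1-/- library 3 was above wild type libraries 1 to 3. The high ratio of wild type library 4 joins the highest Ccar2 value to the lowest wild type Sirt1 value.

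Of the other nuclear sirtuins, Sirt7, which acts on chromatin at ribosomal RNA genes, had 318, 580, 339 and 238 normalised reads in Nupr1-/-, against 156, 200, 164 and 268 in wild type. Only Nupr1-/- library 4 and wild type library 4 crossed between the groups. The mean was 369 ± 147 in Nupr1-/- and 197 ± 51.3 in wild type (SD, n = 4 each), a log2 difference of 0.86 ± 0.31. Its exons share 124 bases with Mafg on the same strand, which had a log2 difference of 0.12 ± 0.25. Sirt7 is GC-rich at 55.6%, and the difference was 0.45 with the GC and length trend removed.

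Sirt6, a histone deacetylase with roles in DNA repair and telomere upkeep, had 94.8, 130, 74.2 and 79.6 normalised reads in Nupr1-/-, against 80.1, 69.96, 53.8 and 21.2 in wild type. The groups overlapped through wild type library 1, and wild type library 4, with 28 reads, was the lowest of the 8. The mean was 94.6 ± 25.0 in Nupr1-/- and 56.3 ± 25.8 in wild type (SD, n = 4 each), and the log2 difference was 0.86 ± 0.53. Its longest transcript has the highest GC content of the 8 genes, 58.4%, and the difference was 0.37 with the trend removed.

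Sirt2, which deacetylates tubulin among other proteins, overlapped widely. It had 314, 291, 488 and 351 normalised reads in Nupr1-/-, against 268, 457, 312 and 202 in wild type. The mean was 361 ± 88.3 in Nupr1-/- and 309.8 ± 108 in wild type (SD, n = 4 each), with a log2 difference of 0.25 ± 0.29, and the difference was -0.07 with the GC and length trend removed. Library 3 was the highest in Nupr1-/- and library 2 in wild type. Sirt2 exons share 42 bases with Nfkbib on the other strand, which had a log2 difference of 0.76 ± 0.39 and did not pass (adjusted p = 0.292).

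In mitochondria, Sirt3, the main deacetylase of that compartment, was the steadiest of the 8 genes among Nupr1-/- libraries, with an SD of 7.07% of the mean. It had 977, 1072, 919 and 934 normalised reads in Nupr1-/-, against 1011, 616, 753 and 819 in wild type. The mean was 976 ± 69.0 in Nupr1-/- and 800 ± 164 in wild type (SD, n = 4 each), and the log2 difference was 0.31 ± 0.20. Wild type library 1 lay within the Nupr1-/- range and the other wild type libraries lay below it. Sirt3 exons share 418 bases with Ric8a (Ric8 in the table) and 342 with Psmd13, both on the other strand, together the longest overlap with genes of the table among the 8, so part of its reads may belong to these neighbours. Ric8 had a log2 difference of 0.26 ± 0.21 and Psmd13 of 0.36 ± 0.43.

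Sirt5, which removes succinyl and related groups, was the least abundant of the 8 genes. It had 29.2, 105, 71.6 and 33.3 normalised reads in Nupr1-/-, against 78.0, 54.2, 67.8 and 20.4 in wild type. Each group spread over a wider range than the distance between the means, 59.7 ± 35.6 in Nupr1-/- and 55.1 ± 25.1 in wild type (SD, n = 4 each). The log2 difference was 0.08 ± 0.64 and rests on as few as 20 reads in a library. Differences of the size of that error, and larger ones too, could go undetected in these libraries.

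Across the 8 genes, 5 had a log2 difference above 0 and 3 below, with a median of 0.16, against 0.03 over all genes tested. With the GC and length trend removed, 5 were again above 0 and 3 below, Ccar1 and Sirt2 having exchanged sign. At an adjusted p under 0.05 (limma, over all 10989 genes) 1 of the 8, Ccar2, passed and was lower, where 3.80% of all genes passed, 1.68% higher and 2.12% lower. The groups did not overlap for 1 of the 8 genes, against 11.7% of all genes. Nothing is read from these counts, since the genes were chosen with this comparison in view.

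**Figure D2:**
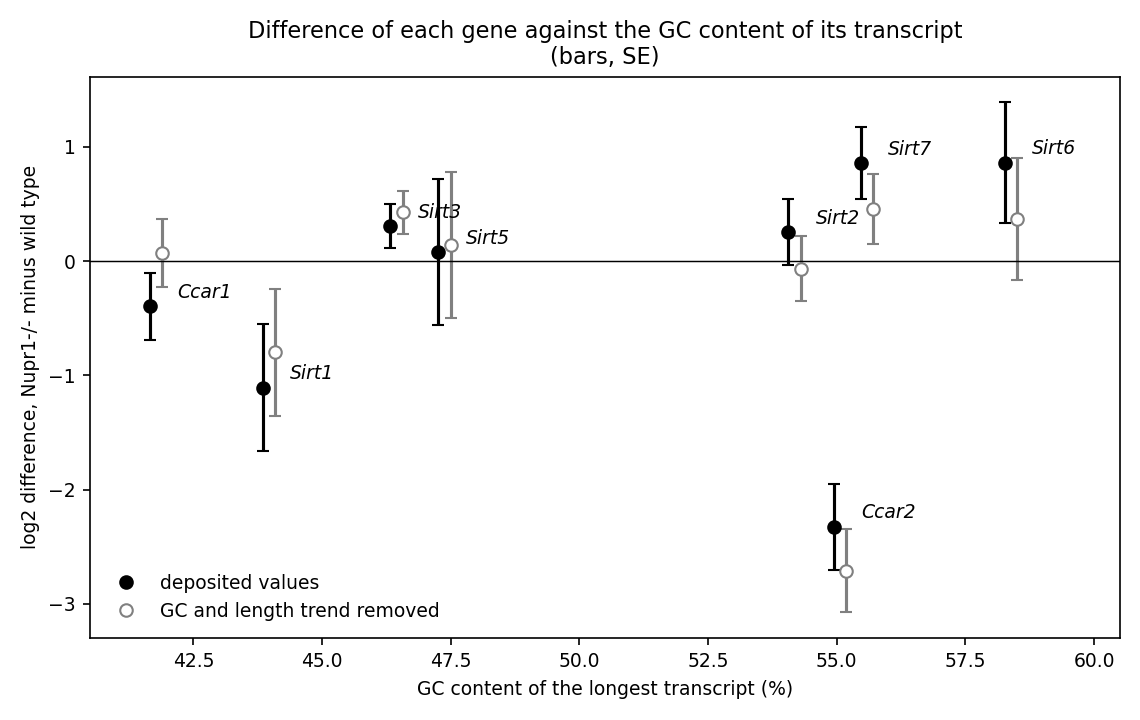
Log2 difference, Nupr1-/- minus wild type (vertical axis), of the 8 genes against the GC content of their longest transcript in percent (horizontal axis), as deposited and with the GC and length trend of each library removed; bars are SE of the fit. Ccar2 moves to -2.71 and away from 0, while Sirt6 and Sirt7 move toward 0, to 0.37 and 0.45.

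Levels were then compared between genes, which the choice of the genes did not use, as normalised reads per kilobase of merged exons. Over the 8 libraries Sirt3 led with 149 ± 25.1 per kilobase (SD), followed by Sirt2 with 66.6 ± 18.9, Sirt7 with 54.9 ± 26.7, Ccar2 with 42.5 ± 36.3, Ccar1 with 31.1 ± 8.09, Sirt6 with 27.1 ± 11.2, Sirt1 with 28.1 ± 20.1 and Sirt5 with 9.42 ± 4.70. The order is that of the mean log2 level, which places Sirt6 before Sirt1. Sirt3 was above Sirt2 in 8 of 8 libraries, by 1.19 on the log2 scale (exact two-sided sign-flip permutation test, p = 0.00781, the smallest that 8 libraries allow, adjusted p = 0.0547 over 7 neighbouring pairs). With 7 pairs, 1 pair alone cannot reach an adjusted p below 0.0547, so the threshold of 0.05 says nothing about this pair. Sirt1 was above Sirt5 in 7 of 8 libraries by 1.37 (exact permutation p = 0.0234, adjusted p = 0.0820), and by 0.31 per kilobase of the longest transcript (exact permutation test, adjusted p = 0.453). The other 5 neighbouring pairs had exact permutation tests over both genotypes together with adjusted p of 0.451 to 0.984. The first gene led in 4 of 8 libraries for Sirt7 over Ccar2, Ccar2 over Ccar1, Ccar1 over Sirt6 and Sirt6 over Sirt1. Per kilobase of exons, those libraries were of a single genotype in each of these pairs, so this test over both genotypes cannot tell the pair apart. Sirt2 was above Sirt7 in 6 of 8 libraries. Per kilobase of the longest transcript, Ccar1 was above Sirt6 by 0.99 and Sirt2 above Sirt7 by 0.95 (exact permutation test, adjusted p = 0.0547 each). The same test gave 1.07 for Sirt7 over Ccar2 (adjusted p = 0.175), 0.47 for Sirt6 over Sirt1 (0.410) and -0.95 for Ccar2 over Ccar1 (0.137).

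The place of Ccar2 in this order differed by genotype, which restates the genotype difference on which the gene was chosen and is no separate result. In Nupr1-/- it ranked 7 of 8 per kilobase (13.5 ± 2.74), above Sirt5 only, and in wild type it ranked 2 of 8 (71.5 ± 28.7), below Sirt3 only. Sirt3 ranked first and Sirt5 last in both genotypes, and Sirt1 ranked 6 in Nupr1-/- (17.4 ± 10.5 per kilobase) and 4 in wild type (38.9 ± 22.8). The ranks depend on the length used. Per kilobase of the longest transcript Ccar2 ranked 8 in Nupr1-/- (16.9 ± 3.42), below Sirt5 (24.6 ± 14.7), and 3 in wild type (89.4 ± 35.9), below Sirt3 and Sirt2. Sirt3 ranked first in both genotypes with that length too.

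**Figure D3:**
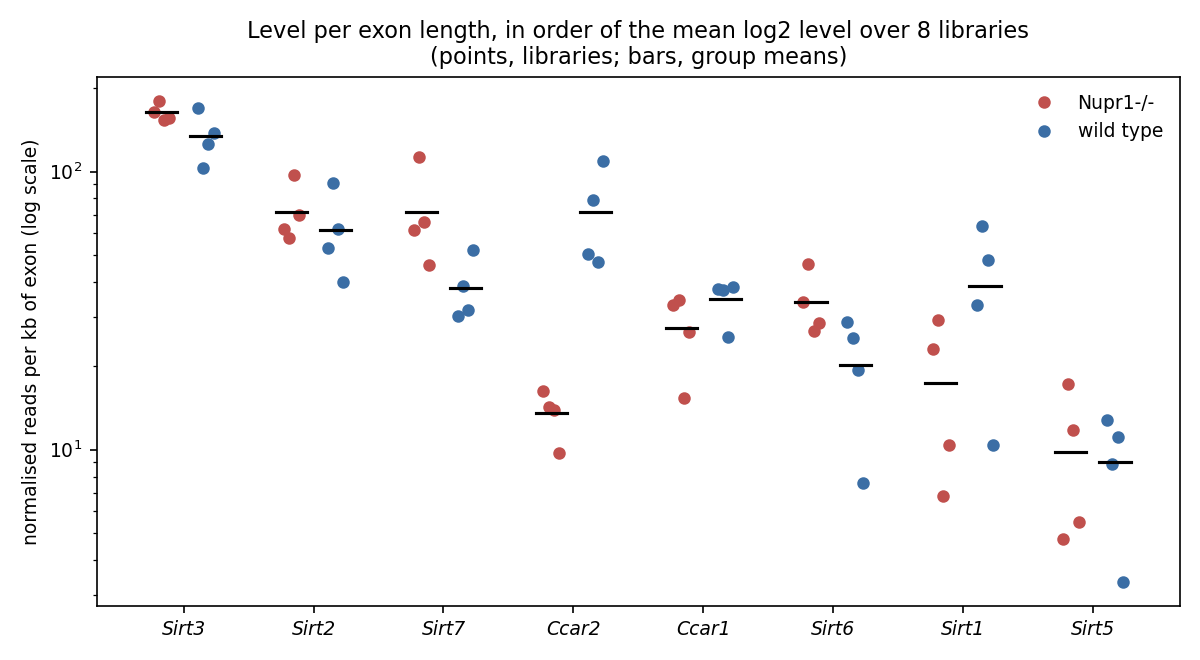
Level of each gene in normalised reads per kilobase of exons (log axis) in each library, Nupr1-/- in red and wild type in blue. Sirt3 lies highest and Sirt5 lowest, and Ccar2 spans the widest range, 9.74 to 109 per kilobase.

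Summed over the 6 sirtuins, the level per kilobase was 349, 443, 362 and 317 in Nupr1-/-, against 327, 331, 298 and 251 in wild type. The means were 368 ± 53.6 in Nupr1-/- and 302 ± 37.1 in wild type (SD, n = 4 each), and the ranges overlapped. Sirt1 made up 4.59 ± 2.38% of this sum in Nupr1-/- and 12.4 ± 6.73% in wild type, overlapping through wild type library 4. The share of Sirt7 was 19.0 ± 4.59% in Nupr1-/- and 13.1 ± 5.22% in wild type. Sirt3 held 44.8 ± 4.01% in Nupr1-/- and 45.0 ± 10.6% in wild type. Per longest transcript the mean shares were 3.003% in Nupr1-/- and 8.15% in wild type for Sirt1, and 16.1% in Nupr1-/- and 11.2% in wild type for Sirt7.

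The genes whose profile over the 8 libraries was most like that of Ccar2, by the root mean square difference of centred log2 values, were Igf1 (0.42), a growth factor, Far1 (0.44), a fatty acyl reductase of peroxisomes, Hoxb4 (0.45), a homeobox transcription factor, Slc39a8 (0.48), a metal transporter, and Chac2 (0.49), a glutathione-degrading enzyme. Each of the 5 was lower in every Nupr1-/- library than in any wild type library, where the groups did not overlap for 11.7% of all genes. Nothing is read from this, since the 5 were picked for likeness to Ccar2, whose groups do not overlap. Hoxb4 rests on 1 to 6 reads and Chac2 on 1 to 5 reads in the Nupr1-/- libraries, so their likeness to Ccar2 depends on values near the floor. Far1, the one with the most reads, had 86.0, 96.0, 112 and 106 normalised reads in Nupr1-/-, against 345, 368, 292 and 418 in wild type. With the GC and length trend removed, the log2 difference shrank from -1.71 to -0.96 for Igf1 and from -1.81 to -1.01 for Far1. It also shrank from -1.78 to -1.17 for Slc39a8 and from -2.46 to -1.66 for Chac2. For Hoxb4 it grew from -2.43 to -2.80, and for Ccar2 it grew as well. For Sirt1 the nearest genes were Lclat1 (0.31), an acyltransferase of phospholipid remodelling, Zfp788 (0.38), a zinc finger protein, and Slc35g1 (0.49). Like Sirt1, all 3 were lower in wild type library 4 than in the other wild type libraries. Nothing is read from this either, since the 3 were picked for likeness to Sirt1. These are descriptions over 8 libraries that share the genotype difference.

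The lists that follow hold genes around the sirtuins and were drawn up with earlier results of these data known. Their members were tested with limma over all 10989 genes, and the adjusted p-values and counts are given as a description. Among 19 tested genes of NAD supply and NAD use, 1 rose and 1 fell, with a median log2 difference of -0.18, where 3.80% of all genes passed and the median of all genes was 0.03. Cd38, the membrane enzyme that breaks down NAD, had 39.4, 37.4, 22.1 and 6.48 normalised reads in Nupr1-/-, against 316, 74.9, 253 and 266 in wild type, and its groups did not overlap. It fell by 3.14 ± 0.63 on the log2 scale (SE, adjusted p = 0.0145), and the call was lost without wild type library 1 (adjusted p = 0.0578) or 3 (adjusted p = 0.0560). Naprt1 (current symbol Naprt), which makes NAD from nicotinic acid, averaged 274 ± 45.6 in Nupr1-/- and 110.2 ± 34.1 in wild type (SD, n = 4 each) and rose by 1.34 ± 0.33 (adjusted p = 0.0341). Its call held without wild type library 2 or 4 and was lost without any other library, at adjusted p of 0.0625 to 0.119. With the GC and length trend removed neither passed: the log2 difference was -2.62 for Cd38 (adjusted p = 0.0790) and 0.83 for Naprt1 (adjusted p = 0.2996).

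Of 17 tested regulators and partners of SIRT1, 2 fell, none rose, and the median was -0.18, where 2.12% of all genes fell and 1.68% rose. Hdac3, a zinc-dependent deacetylase of corepressor complexes, had 270, 212, 261 and 233 normalised reads in Nupr1-/-, against 497, 320, 735 and 551 in wild type. The groups did not overlap, and Hdac3 fell by 1.05 ± 0.27 on the log2 scale (SE, adjusted p = 0.0394). Kat2b, an acetyltransferase of histones and p53, averaged 93.7 ± 24.8 in Nupr1-/- and 241 ± 79.2 in wild type (SD, n = 4 each) and fell by 1.34 ± 0.37 (adjusted p = 0.0493). Both calls held without wild type library 2 and were lost without any other single library, at adjusted p of 0.0780 to 0.128 for Hdac3 and 0.0639 to 0.152 for Kat2b. With the GC and length trend removed neither passed, though the log2 differences were of similar size, -0.98 for Hdac3 (adjusted p = 0.121) and -1.22 for Kat2b (adjusted p = 0.145).

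Of 18 tested SIRT1 substrates, 1 rose and 1 fell, against 3.80% of all genes in either direction, with a median of -0.05. Trp53, the p53 gene, stood at 99.4 ± 28.2 in Nupr1-/- and 548 ± 75.0 in wild type (SD, n = 4 each), a fall of 2.49 ± 0.31 on the log2 scale (adjusted p = 0.00155) that also passed with the GC and length trend removed. E2f1, a cell cycle transcription factor, averaged 237 ± 55.3 in Nupr1-/- and 76.7 ± 46.3 in wild type, and rose by 1.74 ± 0.42 (adjusted p = 0.0305). Its call held without wild type library 2 or 3 and was lost without any other library, at adjusted p of 0.0599 to 0.0926, and with the GC and length trend removed (log2 difference 1.25, adjusted p = 0.207).

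The classical histone deacetylases, which use zinc in place of NAD, gave 1 call among 10 tested genes, the fall of Hdac3 already described, and a median of 0.45, where 3.80% of all genes passed. With the GC and length trend removed the median of the list was 0.19. Hdac6, a deacetylase of tubulin like Sirt2, had 127, 273, 174 and 182 normalised reads in Nupr1-/-, against 50.1, 35.5, 83.8 and 113 in wild type. The groups did not overlap and the log2 difference was 1.49 ± 0.44, but it did not pass (adjusted p = 0.0688). With that trend removed the difference of Hdac6 was 1.28 (limma, adjusted p = 0.224).

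Among 16 tested mitochondrial substrates of Sirt3 and Sirt5, 2 rose, none fell, and the median was 0.25, where 1.68% of all genes rose and 2.12% fell. Aldh2, the mitochondrial aldehyde dehydrogenase, had 532, 444, 391 and 355 normalised reads in Nupr1-/-, against 169.9, 231, 143 and 148 in wild type. It rose by 1.32 ± 0.28 on the log2 scale (SE, adjusted p = 0.0182), and the call was lost without Nupr1-/- library 1 (adjusted p = 0.0672) or 2 (0.0598) or wild type library 3 (0.0502). Idh2, which makes NADPH in mitochondria, averaged 1268 ± 214 in Nupr1-/- and 782 ± 85.5 in wild type and rose by 0.69 ± 0.19 (adjusted p = 0.0494). Its call held without wild type library 2 and was lost without any other library, at adjusted p of 0.0617 to 0.143. Neither passed with the GC and length trend removed, at log2 differences of 0.95 for Aldh2 (adjusted p = 0.133) and 0.30 for Idh2 (adjusted p = 0.537).

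The mitochondrial unfolded protein response is a stress program that Sirt7 has been linked to in mouse HSCs. Among its 11 tested genes limma, edgeR and DESeq2 gave no call. At an unadjusted p under 0.05 (limma) were 3 of the 11, against 2160 of all 10989 genes. The median of the list was 0.22, against 0.03 over all genes. For Spg7, a protease of the inner membrane, the difference on the log2 scale was 0.82 ± 0.29 (adjusted p = 0.129). For Clpp, the matrix protease, it was 0.69 ± 0.27 (adjusted p = 0.165). Leaving out wild type library 2 raised the share called over all genes to 8.15%, and the list counts were then 3 genes of NAD supply and use, 3 regulators and partners, 2 SIRT1 substrates, 3 histone deacetylases, 4 mitochondrial substrates and 2 genes of the unfolded protein response.

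**Figure D4:**
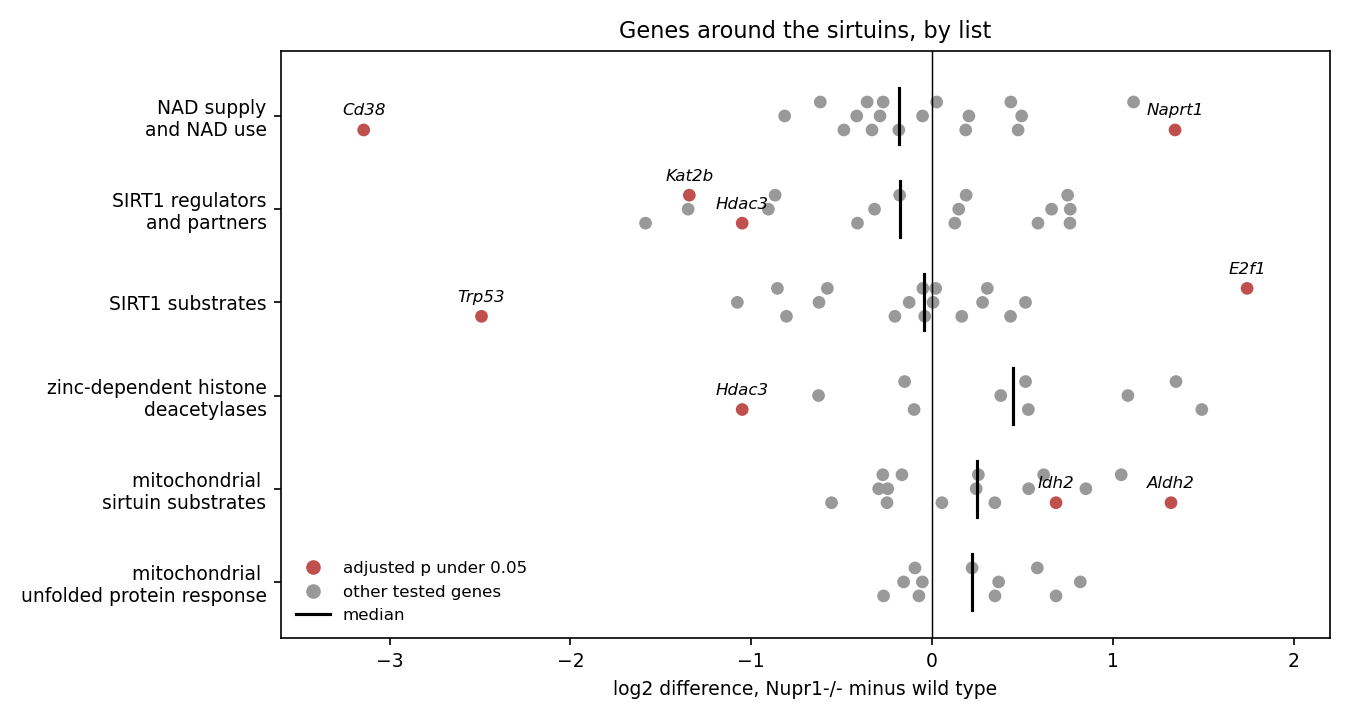
Log2 difference, Nupr1-/- minus wild type (horizontal axis), of the tested genes of 6 lists around the sirtuins, 1 point per gene; red points passed an adjusted p under 0.05 (limma) and vertical bars are the median of each list. Cd38 and Trp53 lie lowest, at -3.14 and -2.49, and E2f1 highest of the called genes, at 1.74.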

How the data were processed

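The authors sorted HSCs, reverse transcribed polyadenylated RNA and made Nextera XT libraries, per the labels' protocols. The submitters' processing notes list DESeq2, Subread with featureCounts, HISAT2 and bcl2fastq, and the mm10 build, without versions or settings. The deposited table, presented as raw counts, holds a normalised signal: 100% of values in each library were whole multiples of 1 step within a tolerance of 0.001, and dividing by it gave back reads. The 1 entry without a name (at most 0.00109% of reads) was left out.

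The 10989 genes that reached 10 in 4 or more libraries were compared on log2(value + 1) with limma 3.58.1 under R 4.3.3 (robust eBayes with a variance trend), two-sided, Benjamini-Hochberg adjusted p under 0.05, which called 418 genes. On recovered reads edgeR 4.0.16 called 341 genes and DESeq2 1.42.0 called 764. Levels per longest transcript, for ratios, ranks and shares, were added after the values were seen. Other alternatives were an added value of 5, no filter, removal of each library's trend in GC content and transcript length (splines of 5 degrees of freedom), the replicate number as a block, and each library left out. Places, exon lengths and GC content are from GENCODE M21 (mm10), matched for 11716 symbols, 453 through another symbol. The script was tested on simulated data.

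The genes described and all lists were chosen with earlier results of these data known. Named were all 8 genes, the called genes of each list (at most 4 by smallest p, or the 2 of smallest p where fewer than 2 were called), the 5 and 3 most similar profiles for Ccar2 and Sirt1, and genes with overlapping exons. Each library is from a separate mouse. Counting error alone is covered by read numbers.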

Additional observations from a re-analysis of the deposited data

Results flagged for a closer look

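Ccar1 in wild type library 3 stood at 269 normalised reads, while the other wild type libraries stood at 397 to 407. Its gap to the nearest of them exceeded the 95% critical value of Dixon's ratio for 4 samples. It was the only flag among 16 groups of 4 examined (8 genes in each genotype), and chance flags about 1 in 20 groups.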

How the results depend on the processing

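The log2 difference of Ccar2 was -2.71 to -2.09 over 15 alternatives, a description of libraries on which the gene was chosen. Sirt1 stayed below 0 in 15 of 15, and Sirt3, Sirt6 and Sirt7 above 0, while Ccar1 was above 0 in 2, and Sirt2 in 2 and Sirt5 in 3 were below 0. The 418 genes called became 764 with DESeq2, 35 with the GC and length trend removed and 48 to 883 with a library left out. With that trend removed, with or without the replicate block, 1 SIRT1 substrate was called and 0 genes of NAD supply and use, SIRT1 regulators, histone deacetylases and mitochondrial substrates. DESeq2 called 2 histone deacetylases. edgeR, no filter and the replicate block each called 1 SIRT1 regulator and 1 mitochondrial substrate. With 1 library left out, counts were 0 to 3 for NAD genes, SIRT1 regulators and histone deacetylases, 1 to 2 for SIRT1 substrates, 0 to 4 for mitochondrial substrates and 0 to 2 for the unfolded protein response. The replicate block called 277 genes, and 32 with the trend removed. The numbers share no source in the labels, and same-numbered libraries correlated at -0.0566 to 0.0148 in their deviations (0 of 4 Nupr1-/- libraries best with their own number), so pairing was not assumed. Between neighbours in level, signs reversed in wild type alone for Sirt7 over Ccar2 (-0.85) and Sirt6 over Sirt1 (-0.81), and with the longest transcript for Ccar2 over Ccar1 (-0.95). With that length Sirt1 over Sirt5 was 0.31, against 1.37, Ccar1 over Sirt6 was 0.99, against 0.27, and Sirt2 over Sirt7 was 0.95, against 0.35. With a library left out these log2 differences were -0.20 to 0.21 (Ccar2 over Ccar1), -0.014 to 0.43 (Ccar1 over Sirt6) and -0.076 to 0.39 (Sirt6 over Sirt1). Why these values moved was not tested. Sirt5 and Sirt6 rest on the fewest reads, 20 and 28 in their lowest library. For Sirt5 the SD between libraries was 59.6% of the mean in Nupr1-/- and 45.5% in wild type.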

Other observations

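Values of Sirt4 and Zfp326, picked out after they were seen, stand beside the family. Zfp326 is also 1 of the 17 tested regulators and partners of SIRT1 above. Sirt4, the remaining mitochondrial sirtuin, had 8.75, 32.4, 2.65 and 36.1 normalised reads in Nupr1-/-, against 32.0, 104, 35.9 and 31.0 in wild type, with overlapping groups. Its log2 difference was -1.64 ± 0.91. Zfp326, which forms a complex with Ccar2 at RNA polymerase II in human cells, had 26.2, 36.2, 31.8 and 50.9 normalised reads in Nupr1-/-, against 107, 97.6, 69.8 and 95.2 in wild type. Its groups did not overlap, its log2 difference was -1.35 ± 0.52, and it did not pass (limma, adjusted p = 0.159). With the GC and length trend removed the difference was -0.66.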
